A study of Mus musculus with 16 samples.

Results

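Nucleotide excision repair was followed through 33 genes chosen by symbol, out of 55359 genes counted in each library. All 33 were found in the annotation and all 33 had enough reads to be tested in every comparison, with 115 to 12958 reads per gene and library. RNA came from whole dorsal skin of wild-type C57Bl/6 mice (C57Bl/6N in the text of the study) aged 8 weeks, with the hair cycle in its resting phase (telogen), and each library was 1 mouse. UVB-irradiated males and UVB-irradiated females, 4 of each, had received 3 exposures of 40 s, one every 2 days, and skin was taken 6 h after the last. The 4 no-UVB males and 4 no-UVB females were the controls. No group carried a transgene or received a drug, and the whole thickness of the skin was sequenced, so that fewer cells of a type and less RNA per cell cannot be told apart in any value below.

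UVB light joins neighbouring pyrimidines in DNA, and nucleotide excision repair is the route by which mammalian cells remove these lesions. Damage is found either anywhere in the genome, by XPC and by the DDB1-DDB2 ubiquitin ligase, or where a transcribing polymerase stalls, by the Cockayne syndrome proteins. The general transcription factor TFIIH then opens the helix, XPA and replication protein A hold the open strands, ERCC1-XPF and XPG cut the damaged strand out, and polymerases and ligases fill the gap. Polymerase eta, included with the list, does not excise lesions but copies past them. Inherited defects in several of these genes cause xeroderma pigmentosum, in which skin exposed to the sun is prone to cancer, and defects in others cause Cockayne syndrome or trichothiodystrophy.

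Reads on genes numbered 16495776 to 33404831 per library, and levels are given as CPM, the reads on a gene per 1000000 reads on genes after scaling between libraries. A gene was called changed at an adjusted *p* under 0.1 by the quasi-likelihood test of edgeR, where Benjamini-Hochberg adjustment ran over all genes tested. Summed keratinocyte markers stood at 4599 to 11764 CPM for the basal list and at 4136 to 22605 for the suprabasal list, and none of these markers that had a count was at or under 3 reads throughout.

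The 33 genes were at low to moderate levels before irradiation and differed among themselves far more than between the sexes. Per kilobase of reference transcript, the median over the genes was 8.05 CPM in no-UVB males and 8.32 in no-UVB females. *Ddb1*, which encodes the adaptor of the recognition ligase and of many other CUL4 ligases, was highest, at 79.7 ± 2.68 CPM per kb (SD, n = 4) in males without UVB and 72.6 ± 1.72 in females without UVB. *Rbx1*, the RING subunit of cullin ligases, and *Rad23b*, which stabilises XPC, followed at 39.8 ± 1.63 and 39.4 ± 1.67 CPM per kb in no-UVB males, and their order was reversed in no-UVB females (36.4 ± 2.52 and 38.2 ± 0.836), so that these neighbours in the order did not differ beyond their spread. The lowest levels were those of the Cockayne syndrome genes *Ercc8* (3.25 ± 0.540 CPM per kb in no-UVB males) and *Ercc6* (3.42 ± 0.297). Levels per kilobase depend on the transcript chosen and are approximate where shorter transcripts are used.

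**Figure D1:**
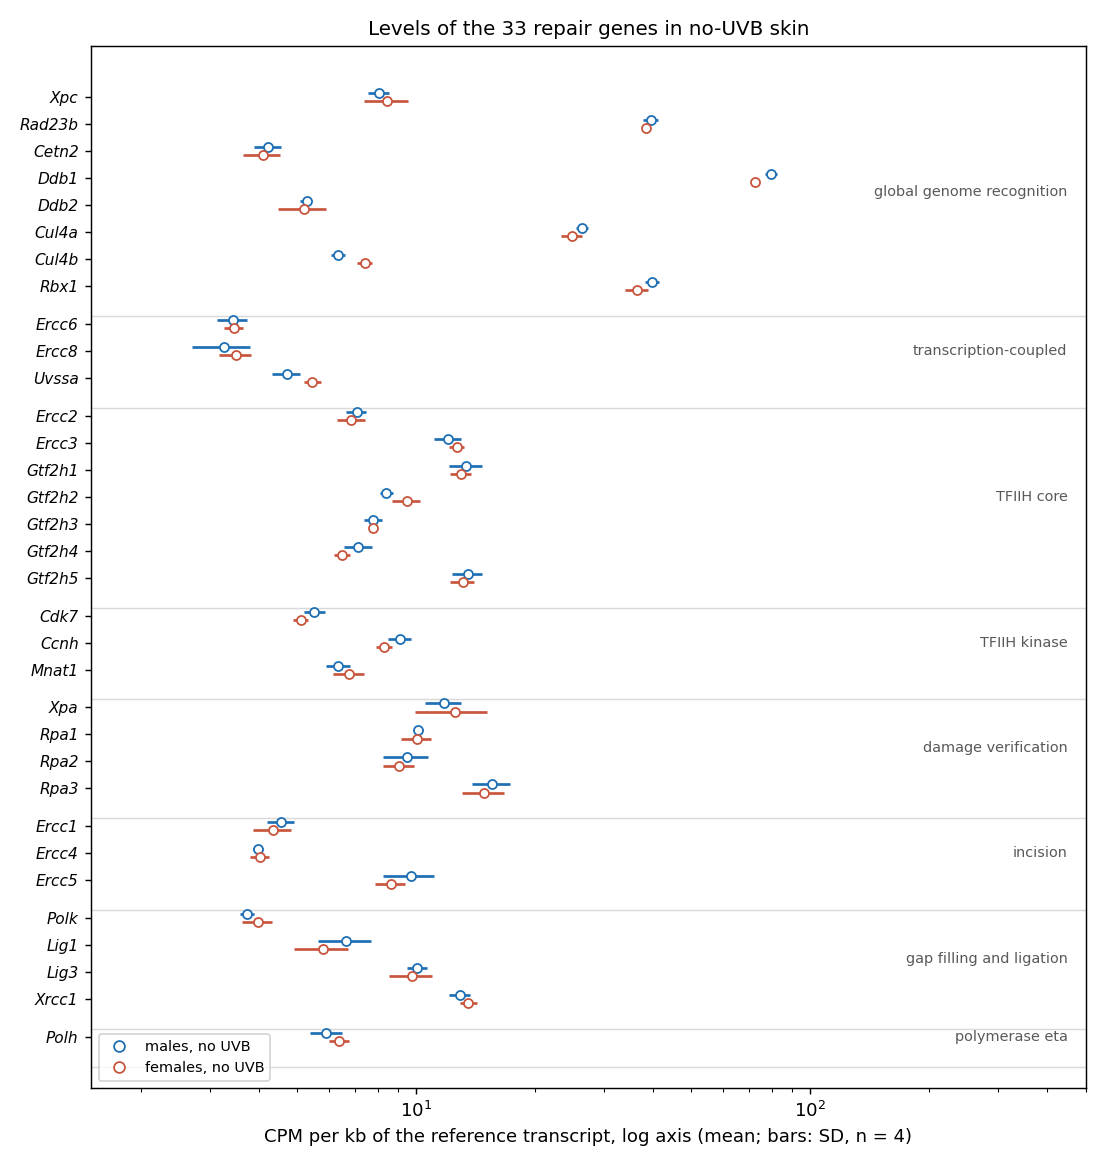
Level of each of the 33 repair genes in no-UVB skin, in CPM per kilobase of reference transcript on a log axis, with the mean and SD of 4 males (blue) and 4 females (red). *Ddb1* lies at the top of the range, at 79.7 and 72.6 CPM per kb, and *Ercc8* and *Ercc6* at the bottom, at 3.25 and 3.42 in males.

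In males, 21 of the 33 genes (63.6%) were higher after UVB, against 29.0% of the 16535 genes tested, and 1 gene, *Ddb2*, was lower (3.03%), against 30.5% of all genes. The changes were small. The median log2 fold change of the 33 was 0.21, against -0.02 for all genes tested, the range ran from -0.26 (*Mnat1*, not called) to 0.62 (*Polk*), and none passed a log2 fold change of 1, which 4.08% of all genes passed upward and 3.31% downward. With upper quartile scaling this median was smaller, fewer of the 33 were higher and more were lower, as given further on. The 4 UVB-irradiated males lay wholly above the 4 no-UVB males for 13 genes (39.4%, against 22.9% of all genes) and wholly below for none (against 24.3%). In females, 5 of the 33 (15.2%) were higher after UVB, against 12.8% of the 16883 genes tested, so that the share was near that of all genes, and 0 were lower in edgeR's test, against 10.6%. Without adjustment, 7 of the 33 had a *p* under 0.05 in females, all of them higher, against 30.3% of all genes in either direction. The median in females was 0.10, against 0.0025 for all genes, and 26 of the 33 genes lay above 0, against 50.4% of all genes. The female groups stood apart for 6 genes, all higher after UVB (18.2%, against 11.1% of all genes, with 10.1% of all genes apart and lower).

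The 5 genes called in females, *Rad23b*, *Gtf2h1*, *Gtf2h5*, *Ercc5* and *Polk*, were also among the 21 called in males, and 16 more were called in males alone. Whether the responses differed between the sexes was tested separately, as the interaction given further on. In males 28 of the 33 genes had a log2 fold change above 0, against 47.9% of all genes. In both sexes 24 lay above 0 (against 37.4% of the 16323 genes tested in both) and 3 below 0 (against 38.7%), namely *Xpc*, *Ddb2* and *Mnat1*. The groups by role hold 1 to 8 genes each, too few for their counts to be read as more than a description.

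**Figure D2:**
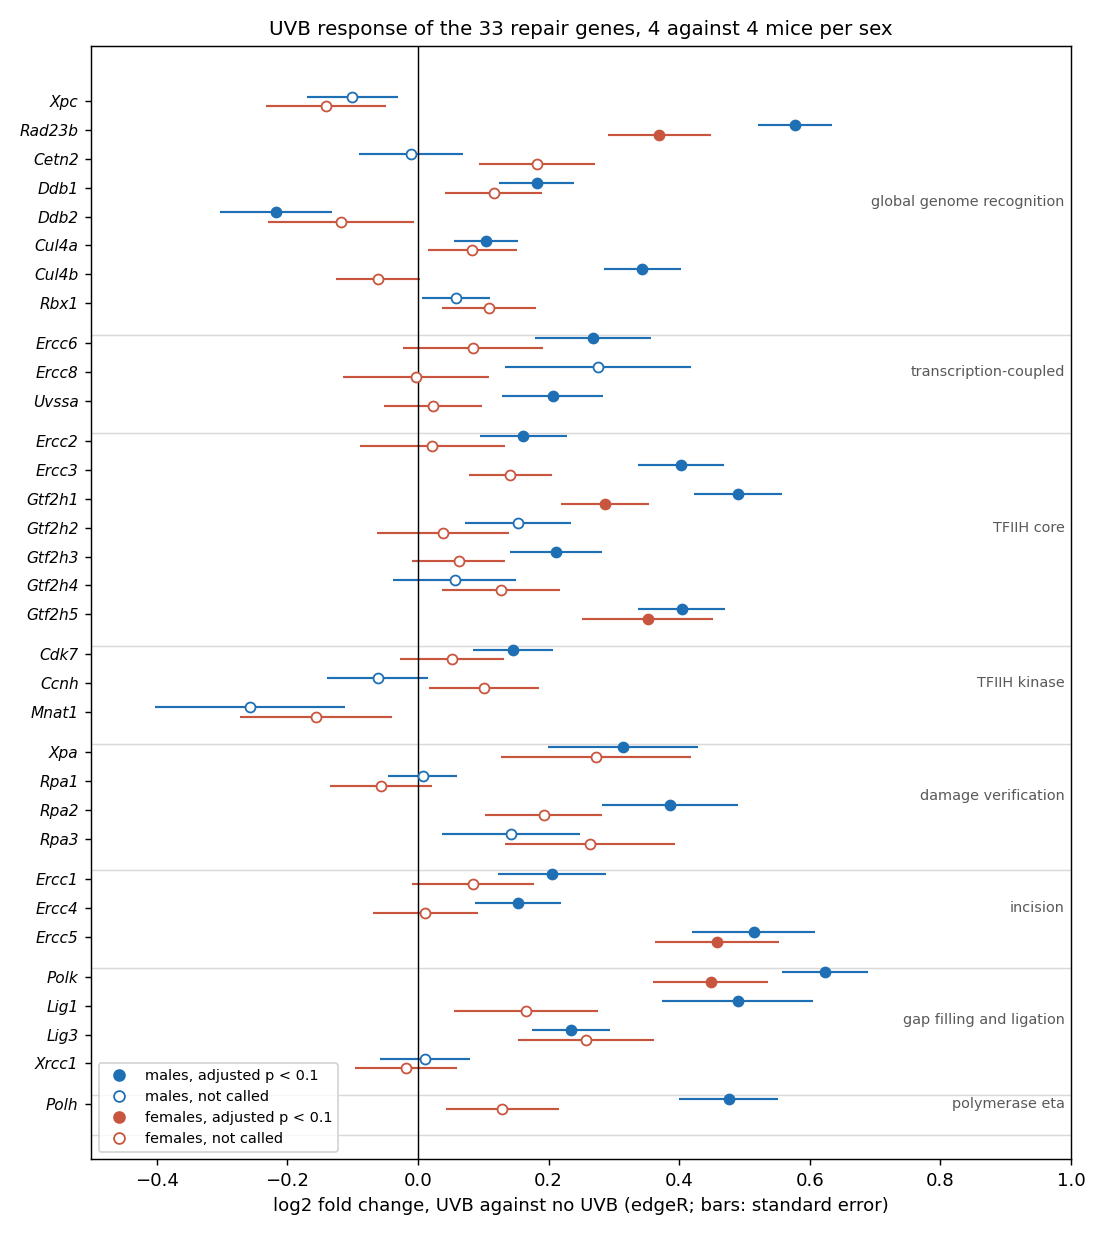
Log2 fold change (UVB against no UVB, edgeR) of the 33 genes in males (blue) and females (red), grouped by role, with bars of 1 standard error and filled points for an adjusted *p* under 0.1. Most male points lie to the right of 0, up to 0.62 for *Polk*, and *Ddb2* is the single filled point to the left, at -0.22.

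Among the 8 genes of global genome recognition, 4 rose and 1 fell in males (against 29.0 and 30.5% of all genes) and 1 rose in females, a share near the 12.8% of all genes. *Rad23b* (ENSMUSG00000028426.11, GRCm39 chr4:55349979-55392237, plus strand) stood at 147, 146, 157 and 158 CPM in no-UVB males and at 220.0, 236, 223 and 214 in UVB-irradiated males. In females it stood at 147, 146, 152 and 144 CPM without UVB and at 178, 174, 212 and 194 after it. The groups did not overlap in either sex. *Rad23b* rose by 0.58 (SE 0.0570, adjusted *p* by edgeR = 1.37e-05) in males and by 0.37 (0.0786, 0.0115) in females on the log2 scale, or by 49.2% and 29.2%. Its partners in the XPC complex were not called in either sex. *Xpc*, the damage sensor itself, had log2 fold changes of -0.10 in males (adjusted *p* = 0.251 by edgeR) and -0.14 in females (0.335), and *Cetn2*, the centrin that binds XPC, had -0.01 (0.921) and 0.18 (0.196). Without no-UVB female replicate 4, *Xpc* was called lower in females (-0.22, 0.0964), and upper quartile scaling called it lower in males (-0.18, 0.0494).

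*Ddb2* (ENSMUSG00000002109.15, chr2:91040809-91078878, minus strand) encodes the subunit that binds UV lesions directly and is a p53 target in human cells. Its levels were 16.1, 15.6, 16.9 and 16.1 CPM in no-UVB males and 13.4, 12.6, 15.6 and 13.3 in UVB-irradiated males, so that the groups touched at UVB replicate 3. *Ddb2* fell by 0.22 on the log2 scale (SE 0.0859, adjusted *p* by edgeR = 0.0520) in males, and in females the log2 fold change was -0.12 (0.112, 0.516), with 13.8 to 19.0 CPM without UVB and 12.8 to 15.3 after it. The call in males held when 4 of the 8 mice were left out in turn, and was lost without UVB male replicates 1, 2 and 4 (adjusted *p* = 0.121, 0.127 and 0.111 by edgeR) and without no-UVB male replicate 3 (0.138). Of the reads at *Ddb2*, 37.7% lay on the other strand, where the coding gene *Acp2* overlaps it, and the call was lost when strand was ignored, with every gene of at least 1 count and in DESeq2's Wald test. The part of the overlap in the call was not tested.

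The ligase scaffolds *Cul4a* and *Cul4b* are close paralogs, of which *Cul4b* is X-linked. *Cul4b* (ENSMUSG00000031095.16, chrX:37620412-37665081, minus strand) stood at 29.9, 32.5, 32.5 and 32.4 CPM in no-UVB males and at 39.99, 41.0, 40.3 and 38.0 in UVB-irradiated males, with no overlap. In females it stood at 35.6, 37.6, 39.2 and 36.2 CPM without UVB and at 36.0, 36.6, 35.3 and 33.8 after it, and these groups overlapped. The log2 fold change was 0.34 (SE 0.0589, adjusted *p* by edgeR = 0.000570) in males and -0.06 (0.0643, 0.561) in females. *Cul4a* changed on the log2 scale by 0.10 in males (edgeR adjusted *p* = 0.0972), a call that held in 2 of 8 fits without 1 mouse, and 0.08 (0.451) in females. *Ddb1* rose by 0.18 in males (edgeR adjusted *p* = 0.0198, and 0.11 and 0.148 with upper quartile scaling) and had 0.12 in females (0.325), while *Rbx1* had 0.06 (0.373) and 0.11 (0.343).

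**Figure D3:**
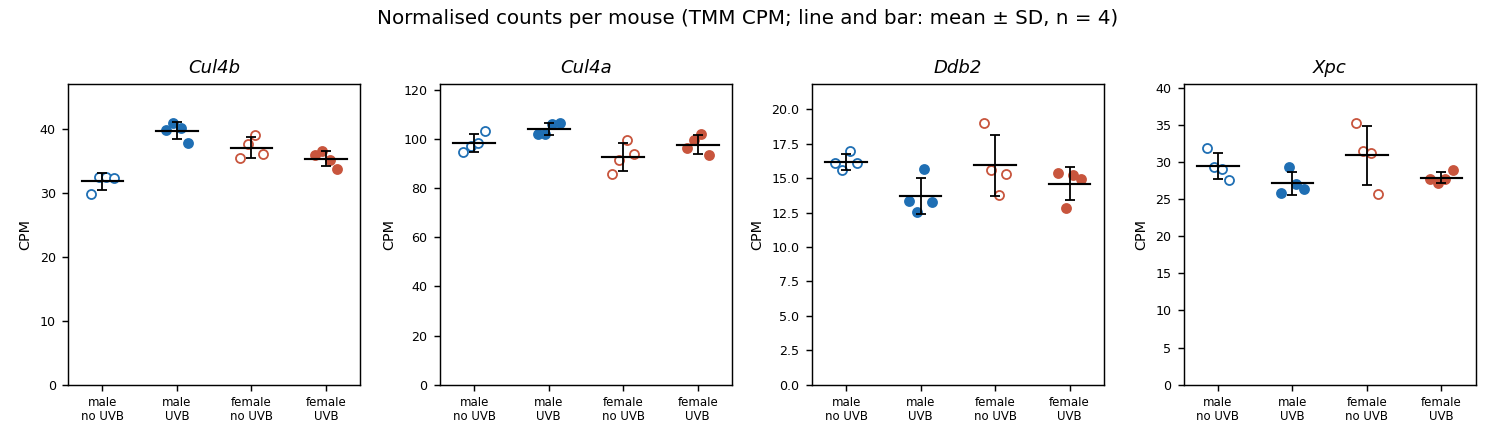
CPM of *Cul4b*, *Cul4a*, *Ddb2* and *Xpc* in each of the 16 mice (points), with the mean and SD of the 4 mice per group, males in blue and females in red, open points without UVB and filled points after it. For *Cul4b*, UVB-irradiated males (38.0 to 41.0 CPM) lie above no-UVB males (29.9 to 32.5), while the female groups overlap.

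Of the 3 genes of transcription-coupled recognition, 2 were called higher in males and none in females (against 29.0 and 12.8% of all genes). *Ercc6*, the CSB translocase, went from 28.9 ± 2.51 to 34.2 ± 3.63 CPM (SD, n = 4) in males, a log2 fold change of 0.27 (edgeR adjusted *p* = 0.0253), although the groups overlapped. *Uvssa*, which brings TFIIH to the stalled polymerase, rose by 0.21 (0.0415) in males. *Ercc8*, the CSA subunit and the gene with the fewest reads, had 0.28 in males with a standard error of 0.142 (0.125). In females these 3 genes had log2 fold changes of 0.08, 0.02 and -0.0033, each within 1 standard error of 0.

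TFIIH consists of a core that opens the helix and a kinase that is released during repair. All 7 core genes had log2 fold changes above 0 in both sexes (against 37.4% of all genes), and 5 rose in males and 2 in females (against 29.0 and 12.8%). *Gtf2h1*, the p62 subunit that XPC contacts (ENSMUSG00000006599.14, chr7:46445218-46473888, plus strand), stood at 42.3, 43.0, 45.2 and 51.9 CPM in no-UVB males and at 63.7, 62.0, 61.9 and 64.6 in UVB-irradiated males. No-UVB females had 48.2, 42.5, 43.3 and 42.7 CPM and UVB-irradiated females 51.9, 52.6, 56.9 and 53.01. The groups did not overlap in either sex, and the log2 fold change was 0.49 (SE 0.0676, adjusted *p* by edgeR = 0.000131) in males and 0.29 (0.0679, 0.0184) in females.

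*Gtf2h5*, the small p8 subunit whose loss causes a form of trichothiodystrophy (ENSMUSG00000034345.15, chr17:6130061-6137387, plus strand), stood at 37.3, 38.8, 34.8 and 42.9 CPM in no-UVB males and at 48.6, 50.5, 49.3 and 51.8 in UVB-irradiated males. Among females it stood at 38.98, 34.04, 39.8 and 36.3 CPM without UVB and at 48.8, 55.3, 44.7 and 40.5 after it. The groups were apart in both sexes, by less than 1 CPM in females. *Gtf2h5* rose by 0.40 (SE 0.0671, adjusted *p* by edgeR = 0.000465) in males and by 0.35 (0.101, 0.0405) in females on the log2 scale. The female call was lost without UVB female replicate 1 (adjusted *p* = 0.102 by edgeR) and without no-UVB female replicate 2 (0.103).

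*Ercc3*, the XPB translocase of TFIIH (ENSMUSG00000024382.14, chr18:32373350-32403205, plus strand), stood at 31.6, 33.01, 29.9 and 36.0 CPM in no-UVB males and at 43.5, 40.6, 43.2 and 42.4 in UVB-irradiated males. No-UVB females had 34.4, 32.4, 36.1 and 34.7 CPM and UVB-irradiated females 37.5, 36.5, 38.1 and 38.9. The groups were apart in both sexes, with the wider gap in males. The log2 fold change of *Ercc3* was 0.40 (SE 0.0657, adjusted *p* by edgeR = 0.000406) in males and 0.14 (0.0633, 0.162) in females, the latter not called. Its partner helicase gene *Ercc2* (XPD) had 0.16 (0.0607) in males, a call that was lost in 4 of 8 fits without 1 mouse, when strand was ignored, with upper quartile scaling, with every gene of at least 1 count and with all 16 libraries in 1 fit. Of the reads at *Ercc2*, 52.5% lay on the other strand, where *Klc3* overlaps it, and the part of this in the call was not tested. *Gtf2h3* rose by 0.21 (0.0262) in males, a call lost with upper quartile scaling (0.13, 0.133), and *Gtf2h2* and *Gtf2h4* were not called, with 0.15 (0.135) and 0.06 (0.642).

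In the 3 genes of the TFIIH kinase the median log2 fold change was -0.06 in males and 0.05 in females. *Cdk7*, the catalytic subunit, was called higher in males (0.15, adjusted *p* by edgeR = 0.0645), in 4 of 8 fits without 1 mouse. *Ccnh*, its cyclin, had -0.06 (0.529), and *Mnat1*, the assembly factor, had -0.26 (0.159) in males and -0.16 (0.401) in females. UVB-irradiated males spread from 10.8 to 17.2 CPM in *Mnat1*, the widest relative spread of any of the 33 genes in that group, and *Mnat1* was called lower there without UVB male replicate 2 (-0.40, 0.0214) and with upper quartile scaling (-0.33, 0.0671).

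The 4 genes of damage verification were called higher in males for *Rpa2* and *Xpa* and in females for none (against 29.0 and 12.8% of all genes). *Rpa2*, the middle subunit of the single-strand binding complex (ENSMUSG00000028884.15, chr4:132495643-132506063, plus strand), stood at 15.2, 15.5, 19.8 and 18.3 CPM in no-UVB males and at 22.2, 23.1, 19.1 and 24.3 in UVB-irradiated males. In females the levels were 18.2, 17.0, 15.0 and 15.4 CPM without UVB and 17.2, 19.2, 19.8 and 18.2 after it. The groups overlapped in both sexes, in males through UVB replicate 3 alone. *Rpa2* had a log2 fold change of 0.39 (SE 0.104, adjusted *p* by edgeR = 0.00897) in males and 0.19 (0.0898, 0.178) in females. The other subunits were not called in either sex, with 0.0075 (*Rpa1*) and 0.14 (*Rpa3*) in males. *Xpa* rose by 0.31 (0.0381) in males and had 0.27 (0.240) in females, and its male call was lost without UVB male replicate 2 (adjusted *p* = 0.104 by edgeR). Of the reads at *Xpa*, 23.8% lay on the other strand, where *Ncbp1* overlaps it. The part of this in the call was not tested.

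All 3 incision genes were called higher in males, of which *Ercc5* also rose in females (against 29.0 and 12.8% of all genes). *Ercc5*, the XPG endonuclease that cuts on the 3′ side (ENSMUSG00000026048.17, chr1:44186888-44220420, plus strand), stood at 45.9, 41.3, 33.3 and 35.1 CPM in no-UVB males and at 56.2, 55.8, 55.1 and 51.7 in UVB-irradiated males. Female levels were 38.0, 35.4, 34.6 and 30.7 CPM without UVB and 45.8, 40.7, 52.5 and 50.5 after it. The groups did not overlap in either sex. *Ercc5* had log2 fold changes of 0.51 (SE 0.0939, adjusted *p* by edgeR = 0.000863) in males and 0.46 (0.0945, 0.00995) in females. The 5′ nuclease genes *Ercc1* and *Ercc4* (XPF) moved less, by 0.21 (0.0555) and 0.15 (0.0718) in males, and these calls held in 6 and 3 of 8 fits without 1 mouse. Of the reads at *Ercc1*, 15.5% lay on the other strand, where *Polr1g* overlaps it. The part of this in the call was not tested.

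In gap filling and ligation, 3 of 4 genes rose in males and 1 in females (against 29.0 and 12.8% of all genes). *Polk* had the largest log2 fold change of the 33 in males. It encodes polymerase kappa, which fills part of the repair patches and also copies past lesions (ENSMUSG00000021668.16, chr13:96617196-96679087, minus strand). Levels were 16.3, 16.3, 15.5 and 15.0 CPM in no-UVB males and 23.8, 23.7, 23.2 and 25.1 in UVB-irradiated males, and in females 18.5, 16.4, 17.1 and 15.0 without UVB and 22.6, 21.1, 24.9 and 22.6 after it. Each irradiated mouse was above every no-UVB mouse of either sex. *Polk* rose by 0.62 (SE 0.0659, adjusted *p* by edgeR = 2.18e-05) in males and by 0.45 (0.0883, 0.00797) in females on the log2 scale, or by 54.0% and 36.4%.

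*Lig1*, the ligase of dividing cells that also joins Okazaki fragments (ENSMUSG00000056394.21, chr7:13011239-13045350, plus strand), stood at 21.1, 18.5, 26.4 and 23.8 CPM in no-UVB males and at 27.2, 35.9, 30.5 and 31.0 in UVB-irradiated males. Females had 22.7, 19.4, 20.9 and 15.4 CPM without UVB and 21.2, 21.8, 21.4 and 23.2 after it. The male groups were apart by less than 1 CPM and the female groups overlapped. *Lig1* had a log2 fold change of 0.49 (SE 0.115, adjusted *p* by edgeR = 0.00438) in males and 0.17 (0.110, 0.342) in females. *Lig3*, which seals nicks with XRCC1, rose by 0.23 (0.00648) in males and had 0.26 (0.122) in females, while *Xrcc1* had 0.01 and -0.02.

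Polymerase eta, which inserts the correct bases opposite thymine dimers, is encoded by *Polh* (ENSMUSG00000023953.10, chr17:46481167-46514658, minus strand). Its level was 18.5, 17.8, 21.9 and 19.2 CPM in no-UVB males and 26.6, 26.2, 26.2 and 27.1 in UVB-irradiated males, which did not overlap. It was 19.6, 22.1, 21.7 and 20.2 CPM in no-UVB females and 20.9, 22.0, 25.7 and 22.3 in UVB-irradiated females, which did. The log2 fold change of *Polh* was 0.48 (SE 0.0756, adjusted *p* by edgeR = 0.000346) in males and 0.13 (0.0863, 0.346) in females.

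**Figure D4:**
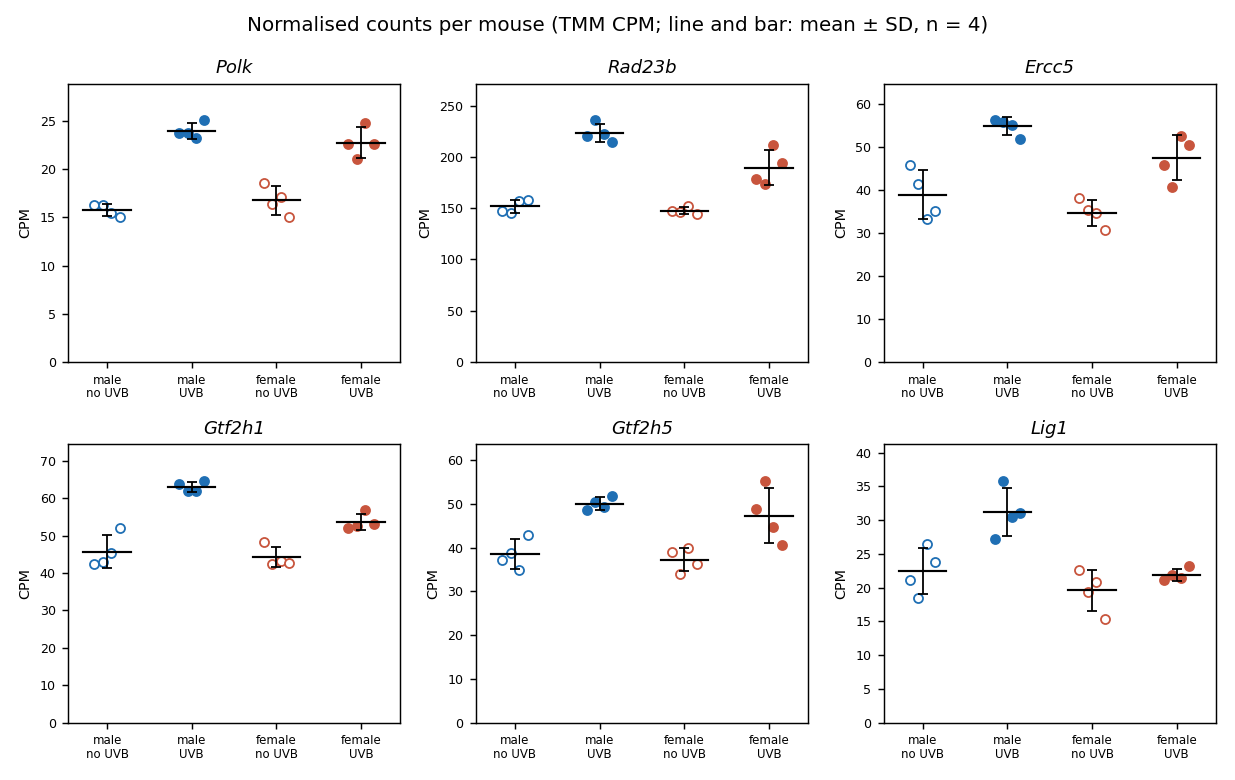
CPM of the 5 genes called higher in both sexes and of *Lig1* in each of the 16 mice (points), with the mean and SD of the 4 mice per group, males in blue and females in red, open points without UVB and filled points after it. For *Polk*, UVB-irradiated mice (21.1 to 25.1 CPM) lie above all no-UVB mice (15.0 to 18.5), whereas for *Lig1* the female groups overlap.

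Of the 22 calls in males, 14 held in each of the 8 fits that left out 1 mouse, and 12 held in those and under every other alternative tried, namely *Rad23b*, *Cul4b*, *Ercc6*, *Ercc3*, *Gtf2h1*, *Gtf2h5*, *Rpa2*, *Ercc5*, *Polk*, *Lig1*, *Lig3* and *Polh*. Among the fits without 1 mouse, the most calls were lost without UVB male replicate 2, namely those of *Ddb2*, *Cul4a*, *Uvssa*, *Ercc2*, *Cdk7*, *Xpa* and *Ercc4*. *Uvssa* was also lost without no-UVB male replicate 4 (adjusted *p* = 0.110 by edgeR), *Ercc2* without it (0.148), without UVB male replicate 1 and without no-UVB male replicate 2, and *Ercc1* without UVB male replicate 1 (0.167) and no-UVB male replicate 3. *Cdk7* was also lost without UVB male replicate 3 and no-UVB male replicates 1 (0.158) and 2, *Ercc4* without UVB male replicate 4 and no-UVB male replicates 1, 2 and 4 (0.159 at most, without UVB male replicate 2), and *Cul4a* in all fits but those without no-UVB male replicates 3 and 4 (0.229 at most). No called gene changed sign in any of the 16 alternative fits. With upper quartile scaling, which moved the median of all genes in males from -0.02 to -0.10, 13 of the 33 genes were higher in males (against 23.5% of all genes under that scaling) and 3 lower (against 37.1%). The 8 male calls lost there were those of *Ddb1*, *Cul4a*, *Uvssa*, *Ercc2*, *Gtf2h3*, *Cdk7*, *Ercc1* and *Ercc4*, whose log2 fold changes were then 0.027 to 0.13.

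The interaction, which tests whether the response differed between the sexes, was called for *Cul4b* alone (log2 difference 0.39, SE 0.0774, adjusted *p* by edgeR = 0.0176), higher in males. That is 1 of 33 genes (3.03%), against 2.75% of the 17406 genes tested, and 0 were lower in edgeR's test, against 4.25%. Without adjustment 4 genes had a *p* under 0.05, all with the larger response in males, against 20.8% of all genes in either direction. *Cul4b* was called in all 23 alternative fits of the interaction, with values of 0.36 to 0.42 when 1 mouse was left out. *Polh* (0.33, adjusted *p* = 0.105) and *Ercc3* (0.25, 0.118) lay just outside, and were called, for example, with DESeq2's size factors (0.36, 0.0818 and 0.28, 0.0811). Over the 33 genes the log2 fold change was larger in males for 25 (against 47.9% of all genes), and the median difference was 0.08, against -0.02 for all genes. For the genes that rose in both sexes the intervals of the difference (95%) were -0.06 to 0.38 for *Polk*, 0.0011 to 0.39 for *Rad23b*, -0.25 to 0.34 for *Ercc5*, -0.0087 to 0.39 for *Gtf2h1* and -0.22 to 0.30 for *Gtf2h5*, none of them past the adjusted threshold.

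Before irradiation the sexes differed for 2 of the 33 genes, both lower in males (6.06%, against 4.58% of the 17406 genes), and for 0 higher in edgeR's test (against 7.21%), with 2 higher at an unadjusted *p* under 0.05. *Cul4b* was lower in no-UVB males by a log2 difference of -0.22 (edgeR adjusted *p* = 0.0195), with no overlap between the sexes. *Uvssa* was lower by -0.22 (0.0867), a call that held in 8 of 16 fits without 1 mouse (highest adjusted *p* = 0.237 by edgeR, without no-UVB male replicate 4). After UVB, 9 genes (27.3%, against 12.8%) were higher in males and 0 lower (against 12.5%, and 0 also at an unadjusted *p* under 0.05). They were *Rad23b* (0.24), *Ddb1* (0.19), *Cul4b* (0.17), *Ercc3* (0.17), *Gtf2h1* (0.23), *Cdk7* (0.19), *Rpa2* (0.25), *Polh* (0.22) and *Lig1*, which had the largest difference (0.51, SE 0.118, adjusted *p* by edgeR = 0.00949, no overlap). *Rad23b*, *Gtf2h1* and *Lig1* kept this call in every alternative, and without UVB female replicate 1 the calls fell to 4, where the share of all genes called higher was 7.46%. Upper quartile scaling gave 4 higher (against 9.53% of all genes under that scaling) and 1 lower (against 15.7%). For *Cul4b* the order of the sexes thus differed between the controls and the irradiated skin. These comparisons share their samples with the responses above and are no separate evidence.

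Other genes of the pathway, those for the clamp, its loader, the replicative polymerases and the factors around transcription-coupled repair, were followed as a second list. Of 27 such genes tested, 15 were higher and 2 lower in males (against 29.0 and 30.5% of all genes), with a median log2 fold change of 0.23 (all genes -0.02), and 11 were higher and 1 lower in females (against 12.8 and 10.6%), with a median of 0.14 (all genes 0.0025). *Rfc3*, a subunit of the clamp loader, had 0.75 in males (edgeR adjusted *p* = 0.000769) and 0.29 in females (0.0914), and *Rfc4* had 0.50 (0.00533) and 0.28 (0.191). *Pole3*, a small subunit of polymerase epsilon, rose by 0.52 (6.23e-05) and 0.38 (0.0133), *Pole*, its catalytic subunit, by 0.52 (0.0530) and 0.43 (0.0248), and *Pcna*, the sliding clamp, by 0.50 (0.000266) and 0.29 (0.0631). The genes called lower were *Parp1* (-0.16) and *Chd1l* (-0.21) in males and *Usp45* (-0.22) in females, which are named after their values were seen.

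Markers of proliferation and of skin layers also changed after UVB, some upward and some downward. In males 29.0% of all genes were called higher and 30.5% lower, and in females 12.8 and 10.6%, against which the counts of markers stand. Of 19 S-phase and replication genes, none of which is among the 33, 17 rose and 1 (*Pola1*) fell in males (median log2 fold change 0.72) and 16 rose and 1 (*Pola1*) fell in females (0.45). Their summed level was 382 to 596 CPM in no-UVB males and 754 to 875 in UVB-irradiated males, and 367 to 482 and 529 to 643 in the corresponding females, with no gene of the list at or under 3 reads throughout. Between the irradiated sexes, 14 of these 19 genes were higher in males and 0 lower (against 12.8 and 12.5% of all genes), with a median log2 difference of 0.47. All 5 suprabasal keratinocyte markers with a count rose in both sexes, and their sum went from 4615 to 7098 CPM up to 15849 to 22605 in males and from 4136 to 6246 up to 8160 to 11450 in females. The 6 basal keratinocyte markers were divided, with 2 higher and 1 lower in males (median 0.15) and 1 higher and 1 lower in females (median -0.22). Of 7 dermal fibroblast markers, 6 fell in males, where the sum went from 79632 to 86883 CPM down to 28753 to 39690, and 1 rose and 1 fell in females, from 19755 to 21021 CPM without UVB and 12655 to 22538 after it. Of 6 skeletal muscle markers, 5 fell in males, from 17645 to 21906 CPM down to 12667 to 15643, while in females the median log2 fold change of the 6 was 0.10, with 11562 to 16773 CPM without UVB and 12559 to 18167 after it. The part of these shifts in the values of the repair genes was not tested. When the 100 most abundant genes were left out of the fit, which was chosen with earlier results of these data known, the call of each of the 33 genes was as before in both sexes.

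Long genes were lower after UVB in the skin as a whole, and the span of the repair genes was compared with that. Over coding genes, the log2 fold change fell with the annotated span (Spearman's rho of -0.27 across 14614 genes in males and -0.39 across 14763 in females), and genes of 60 to 200 kb had medians of -0.18 (males) and -0.12 (females). Over the 33 repair genes rho was 0.0027 in males and -0.27 in females, as a description across genes that are not independent. The 4 repair genes in the 60 to 200 kb bin were *Polk*, *Ercc6*, *Ccnh* and *Mnat1*, whose medians were 0.10 (males) and 0.09 (females). No repair gene was longer than 200 kb, a class of 771 genes with a median of -0.65 in males.

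**Figure D5:**
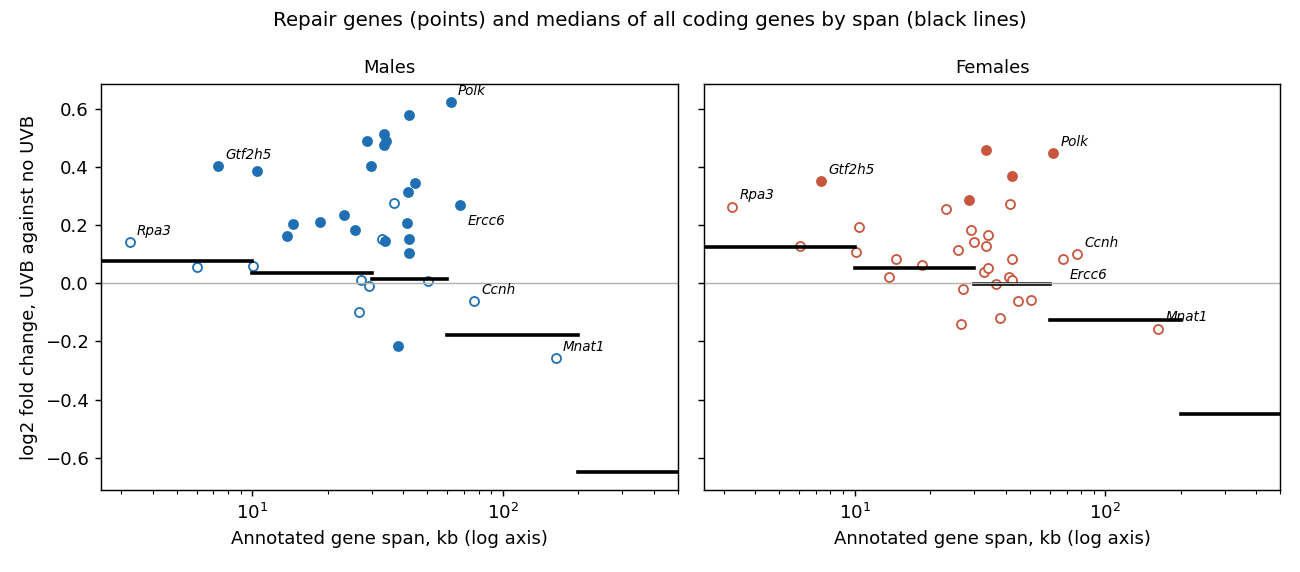
Log2 fold change against annotated gene span (kb, log axis) for the 33 repair genes (points, filled where called) in males (left) and females (right), with black lines at the median of all coding genes in each span bin. *Polk*, at 0.62 and 0.45, lies far above the line of its bin, at -0.18 and -0.12, and *Mnat1* below it.

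The genes that rose in both sexes and the one with a called interaction are shown with the 250 bases before the start of their reference transcript, 5′ to 3′ on the strand of the gene, so that their promoters can be compared. Capitals mark matches on either strand to the GC box GGGCGG, the CCAAT box CCAAT and the ETS core CCGGAAG. Sequence is from GRCm39 and transcript starts are from GENCODE M39. The annotated gene can begin before its reference transcript. The window of *Gtf2h1* thus lies wholly within the annotated gene, and those of *Polk*, *Rad23b* and *Ercc5* lie partly within it.
*Polk* promoter, chr13:96678994-96679243, minus strand: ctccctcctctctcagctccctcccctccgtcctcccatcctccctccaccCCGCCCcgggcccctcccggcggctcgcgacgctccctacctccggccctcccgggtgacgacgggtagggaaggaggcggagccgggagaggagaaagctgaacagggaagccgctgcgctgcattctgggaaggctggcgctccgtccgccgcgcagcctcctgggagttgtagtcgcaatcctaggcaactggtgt
*Rad23b* promoter, chr4:55349747-55349996, plus strand: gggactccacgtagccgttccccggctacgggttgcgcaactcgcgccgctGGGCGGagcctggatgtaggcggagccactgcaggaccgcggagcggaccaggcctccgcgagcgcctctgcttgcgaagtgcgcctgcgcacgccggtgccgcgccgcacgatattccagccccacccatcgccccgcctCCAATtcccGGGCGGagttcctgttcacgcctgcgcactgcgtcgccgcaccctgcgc
*Ercc5* promoter, chr1:44186654-44186903, plus strand: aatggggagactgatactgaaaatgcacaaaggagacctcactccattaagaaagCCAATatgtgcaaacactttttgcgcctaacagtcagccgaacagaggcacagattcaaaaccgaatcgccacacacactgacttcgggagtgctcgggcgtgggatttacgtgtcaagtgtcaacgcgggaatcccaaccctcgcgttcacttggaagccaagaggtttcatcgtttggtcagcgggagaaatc
*Gtf2h1* promoter, chr7:46445277-46445526, plus strand: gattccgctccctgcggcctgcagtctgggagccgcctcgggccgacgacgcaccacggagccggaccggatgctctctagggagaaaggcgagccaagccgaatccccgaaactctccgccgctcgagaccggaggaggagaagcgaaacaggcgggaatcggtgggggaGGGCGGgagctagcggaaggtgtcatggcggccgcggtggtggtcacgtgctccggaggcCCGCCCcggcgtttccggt
*Gtf2h5* promoter, chr17:6129811-6130060, plus strand: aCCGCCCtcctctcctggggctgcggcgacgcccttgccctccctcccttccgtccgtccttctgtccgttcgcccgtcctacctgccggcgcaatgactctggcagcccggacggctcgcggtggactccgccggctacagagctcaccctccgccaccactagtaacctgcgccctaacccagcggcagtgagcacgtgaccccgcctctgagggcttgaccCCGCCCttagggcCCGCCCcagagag
*Cul4b* promoter, chrX:37665082-37665331, minus strand: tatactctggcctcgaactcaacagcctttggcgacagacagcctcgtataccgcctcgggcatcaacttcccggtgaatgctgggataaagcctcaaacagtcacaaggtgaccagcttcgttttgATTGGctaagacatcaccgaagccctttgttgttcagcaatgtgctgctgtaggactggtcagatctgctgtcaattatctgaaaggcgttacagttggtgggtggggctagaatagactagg

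Base composition differed among these promoters. Those of *Polk*, *Rad23b*, *Gtf2h1* and *Gtf2h5* were 70.0 to 72.4% G and C and held 1 to 3 GC boxes each, whereas those of *Ercc5* and *Cul4b* (50.4% at most) held no GC box and 1 CCAAT box each. *Rad23b* also held 1 CCAAT box. Over the 33 genes, 19 held a GC box (57.6%, against 46.6% of 14861 promoters of tested coding genes), 16 a CCAAT box (48.5%, against 35.5%), 6 an ETS core (18.2%, against 8.88%) and 7 an E-box CACGTG (21.2%, against 7.39%). The TATA box letters TATAAA were in none of the 33 windows and in 8.04% of all, and the E2F core TTTCCCGC was in 1, that of *Rbx1*, and in 1.49% of all. The full p53 response element was in 0 of the 33 and in 0.0269% of all windows. With 4 matches in all 14861 windows, the 0 cannot tell whether these genes hold p53 sites. These are matches of letters in 1 window per gene, and no binding was measured.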

How the data were processed

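Whole dorsal skin RNA of 16 mice, 4 in each of the 4 groups, was analysed, and no library was left out. The authors aligned strand-specific reads to GRCm39 with STAR and deposited raw counts, whole numbers for each Ensembl gene in each mouse (the STAR version and annotation release are not given in the sources used here). Of the count columns, the one for the strand read by the directional kit was taken. The other strand held 3.63 to 4.23% of gene reads, and reads on genes numbered 16495776 to 33404831 per library. Rows of unassigned reads were kept out of library sizes and tests: reads outside genes were 8.30 to 13.7% of a library and reads ambiguous between genes 1.17 to 1.34%. Symbols and positions came from GENCODE M39, which held 54749 of the 55359 identifiers.

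Genes were kept by filterByExpr, scaled by TMM and tested by edgeR 4.0.16 (quasi-likelihood, robust) in R 4.3.3, with limma 3.58.1 and DESeq2 1.42.0. Each UVB response was fitted in the 8 libraries of a sex, and the interaction and the sex differences in all 16. A gene was called where its p after Benjamini-Hochberg adjustment was under 0.1, and 95% intervals use the t quantile at the degrees of freedom of edgeR's fit. Plots were made with Python and matplotlib. The 33 genes and the other lists were chosen with earlier results of these data known. Values per library are given for the 10 called genes with the largest absolute log2 fold change in either sex, and in addition for *Ddb2*, the single gene called lower. In the other lists, up to 5 called genes with the largest change are named. Mice are the replicates, and libraries of a group differed by more than counting noise (chi-square per degree of freedom of 10.4 to 109). The fit was also run on simulated counts with the same spread set for every gene, and no result given here rests on that run.

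Alternatives were DESeq2's size factors, counts that ignore strand, upper quartile scaling, every gene with at least 1 count, DESeq2's Wald test, a replicate block, an adjusted p under 0.05, all 16 libraries in 1 fit for the responses, leaving out each mouse in turn and, added later, leaving out the 100 most abundant genes. Levels per kilobase used the length of the GENCODE reference transcript. The marker lists of basal and stress keratinocytes, endothelium, macrophages, neutrophils, T cells, Langerhans cells, melanocytes and adipocytes had median log2 fold changes in males of 0.15, 6.11, -0.0024, -0.38, 3.63, -0.66, -0.72, 0.59 and -0.50, and in females of -0.22, 2.97, 0.16, -0.30, 0.17, -0.49, -0.26, -0.09 and 0.20. One gene of the suprabasal list, *Lor*, had no row under that symbol.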

Additional observations from a re-analysis of the deposited data

Results flagged for a closer look

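In 6 of 132 sets of 4 mice, 1 per gene and group, a single mouse stood apart from the other 3, where chance flags about 1 in 20 such sets. *Cetn2* was lowest in no-UVB male replicate 3, at 20.3 CPM against 23.9 to 24.0 in the others. *Cul4b* was lowest in no-UVB male replicate 1 (29.9 CPM, against 32.4 to 32.5), and *Ddb2* in UVB female replicate 2 (12.8 CPM, against 15.0 to 15.3). No-UVB female replicate 1 had the highest *Gtf2h1* (48.2 CPM, against 42.5 to 43.3) and the highest *Mnat1* (19.4 CPM, against 16.2 to 16.5) of its group, and no-UVB female replicate 3 had the highest *Uvssa* (43.8 CPM, against 39.5 to 39.9).

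*Cul4b* was flagged because the response to UVB differed between the sexes by 0.39 on the log2 scale in edgeR's test of the interaction (adjusted *p* = 0.0176).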

How the results depend on the processing

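No call changed direction in any alternative. With upper quartile scaling, 13 genes were higher and 3 lower in males, and 4 higher and 1 lower in irradiated males against irradiated females. The single lower call in males was lost (0) at an adjusted p under 0.05, with counts without regard to strand, with every gene of at least 1 count and in DESeq2's Wald test. An adjusted p under 0.05 lost 6 male calls in all, where 25.8% of all genes were higher and 26.3% lower. They were those of *Ddb2*, *Cul4a*, *Ercc2*, *Cdk7*, *Ercc1* and *Ercc4*. Every gene of at least 1 count lost 5 male calls (15.8% of all genes higher and 14.7% lower). All 16 libraries in 1 fit lost 4 (25.6 and 29.9%). The interaction was called for 3 genes with DESeq2's size factors, in DESeq2's Wald test and without the 100 most abundant genes, where 3.95, 3.09 and 4.51% of all genes tested were called higher (against 2.75% as reported). Between the control sexes, DESeq2's Wald test called 1 gene higher (*Ddb1*, against 3.98% of all genes in that test), and an adjusted p under 0.05 or every gene of at least 1 count left 1 lower (against 2.53 and 1.70%). In irradiated skin, an adjusted p under 0.05 left 5 genes higher in males (against 8.88%) and every gene of at least 1 count left 3 (against 4.14%). The cause was not tested. Leaving out 1 mouse, the higher and lower calls numbered 15 to 21 and 0 to 1 in males, 4 to 6 and 0 to 1 in females, 1 to 3 higher in the interaction, 1 to 2 lower between the control sexes, and 4 to 10 higher and 0 to 1 lower between the irradiated sexes. In the same fits the share of all genes called higher was 26.7 to 29.9% in males, 8.79 to 12.0% in females, 0.928 to 4.74% in the interaction and 7.46 to 13.3% between the irradiated sexes, and the share called lower was 26.5 to 29.1% in males, 7.09 to 10.3% in females, 2.45 to 5.36% between the control sexes and 8.28 to 13.4% between the irradiated sexes. Over the 33 genes the median moved to 0.13 in males and 0.06 in females with upper quartile scaling.

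The replicate numbers do not show whether mice were paired. Same-numbered mice of a sex deviated from their group means with correlations of -0.115 to 0.217. In female replicates 1 and 3 the same number correlated most, at 0.155 and 0.217, against 0.0108 and 0.0915 at most for other numbers. In every other replicate of either sex, another number correlated more. These correlations cannot settle whether the mice were paired. With the replicate block, 19 genes were higher and 1 lower in males (against 28.3 and 29.9% of all genes in that fit), 5 were higher in females (11.6%) and 2 in the interaction (*Cul4b* and *Polh*, 3.23%). With 4 mice per group, the standard error of a log2 fold change in males ran from 0.0494 (*Cul4a*) to 0.145 (*Mnat1*), which limits the size of change that could be called.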

Other observations

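Base excision repair, which removes oxidised and deaminated bases, was followed through 14 genes. In males 8 were higher and 1 (*Nthl1*, log2 fold change -0.48) lower after UVB, with a median of 0.34, and in females 6 were higher, with a median of 0.19 (29.0% of all genes were higher and 30.5% lower in males, and 12.8 and 10.6% in females). *Tdg*, a thymine DNA glycosylase, rose by 0.77 on the log2 scale in males (adjusted *p* = 1.89e-05 by edgeR) and by 0.37 in females (0.0396). *Fen1*, the flap nuclease, had 0.74 (0.000174) and 0.41 (0.0152), *Apex1*, the abasic site nuclease, 0.49 (7.99e-05) and 0.34 (0.0391), and the glycosylase genes *Neil3* 0.70 (0.0124) and 0.45 (0.0584) and *Ung* 0.45 (0.0264) and 0.51 (0.0445). The 8 mismatch repair genes were divided. *Exo1*, an exonuclease, rose by 1.26 (0.000618) in males and 0.86 (0.0119) in females and *Msh6* by 0.32 (0.00665) in males, whereas *Msh3* fell in males (-0.37, 0.00130) and females (-0.37, 0.0228), as did *Mlh3* (-0.27, 0.0107, and -0.34, 0.0201), and *Pms1* fell in females (-0.47, 0.0618). The median of the 8 was -0.02 in males and -0.09 in females.

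Targets of p53 outside the repair list were called higher in 13 of 20 cases and lower in 2 (*Sesn1* and *Rrm2b*) in males, against 29.0 and 30.5% of all genes, and 16 of the 20 were higher in females, against 12.8%, with the other 4 not called, with a median log2 fold change of 0.46 in both sexes. *Cdkn1a*, the cell cycle inhibitor p21, rose by 1.02 (adjusted *p* = 7.12e-07 by edgeR) in males and 1.09 (0.000197) in females. *Aen*, a nuclease of apoptosis, rose by 1.24 and 1.06, and *Pmaip1*, which encodes NOXA, by 2.06 and 1.16. The interaction was called for 3 of the 20, higher in males for *Pmaip1* (0.88, 0.0437) and lower for *Ccng1* (-0.52, 0.0573) and *Rrm2b* (-0.35, 0.0990), against 2.75% of all genes higher and 4.25% lower. *Plk2* rose by 0.93 and 0.66 and *Gdf15* by 0.86 and 1.12.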
